A study of Mus musculus with 21 samples.

Results

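RNA was compared between a pair of macrophage populations sorted from the adipose tissue of obese mice: MHCII+CD11c- macrophages and MHCIIlow macrophages. The comparison took 6 of the 21 libraries of the series, 3 in each population, chosen by their titles, and all genes expressed in them. All 6 came from male C57BL/6 mice kept on a high fat diet (HFD) for 16 weeks. The labels name no transgene, allele or drug in either group. Per the labels, adipose tissue was digested with collagenase, cells were sorted by flow cytometry, and total RNA from a PicoPure kit was turned into libraries with the NuGen Ovation mouse system. Lean male C57BL/6 mice on the normal diet (ND) for 16 weeks gave the same pair of populations, with 3 libraries each. Obese MHCII+CD11c+ macrophages and obese P3 cells, which the labels call derived from monocytes, gave 3 libraries each and entered the statistical fit. The labels do not say which fat depot was used, whether several mice were pooled, or whether the replicates of a group were separate animals. The p-values below therefore measure only the spread between these samples. In fits with a term for the replicate number, that is the spread left once what libraries of equal number shared is removed. It is estimated over all libraries of a fit. Library totals were 26648301 to 31056402 counts in obese MHCII+CD11c- macrophages and 30083259 to 35568948 counts in obese MHCIIlow macrophages.

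MHC class II molecules carry peptides from ingested protein to the cell surface, where CD4 T cells read them. Their alpha and beta chains are assembled with the invariant chain Cd74, loaded with help of the H2-DM proteins, and transcribed under the control of the coactivator Ciita. Macrophages of adipose tissue differ in how much of this machinery they carry. Those that lie along blood vessels in healthy fat are known for scavenger and lectin receptors such as Lyve1, Cd163, Mrc1 and Timd4, while macrophages of obese fat take up lipid and express Trem2 and Gpnmb.

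Ciita acts at promoters through proteins bound to short conserved elements named the X and Y boxes. The bases before the start of 3 genes are shown because a pair of them rose between the populations and the third, which encodes a reductase of the antigen-processing pathway, did not pass the test. The sequences are from RefSeq on GRCm38.p6, read 5′ to 3′ on the gene's own strand, and end at the base before the start site. Capitals mark matches to the X pattern AGNNACNGATG and to the Y pattern GATTGG, searched on both strands.
H2-Aa (chr17:34287824-34287973, minus strand): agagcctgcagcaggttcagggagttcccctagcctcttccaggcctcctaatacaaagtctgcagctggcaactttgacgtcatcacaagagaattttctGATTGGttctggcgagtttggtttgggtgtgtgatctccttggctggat
H2-Eb1 (chr17:34305717-34305866, plus strand): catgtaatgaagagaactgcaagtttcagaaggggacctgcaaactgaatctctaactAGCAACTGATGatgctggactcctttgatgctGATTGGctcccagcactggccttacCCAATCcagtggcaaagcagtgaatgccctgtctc
Ifi30 (chr8:70766664-70766813, minus strand): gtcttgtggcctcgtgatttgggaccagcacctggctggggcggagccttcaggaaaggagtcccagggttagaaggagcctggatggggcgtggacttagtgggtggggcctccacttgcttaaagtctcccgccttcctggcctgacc
In the 250 bases before the start, the X pattern occurred in 0.816% of 32851 RefSeq promoters, the Y pattern in 14.6% and both in 0.119%. Of the 13 genes of the class II list 10 had an entry. Both patterns lay in 4 of them (H2-Eb1, H2-Eb2, H2-DMb1 and H2-Oa), and 4 others held the Y pattern alone (H2-Aa, H2-DMa, H2-DMb2 and H2-Ob). The windows of Ctss and Ifi30 held neither. H2-DMa had a pair of entries, and the Y pattern lay in one of them. H2-Oa, whose counts were very low, held both patterns and did not pass the test, while H2-Aa rose with a match to the Y pattern alone. The search was exact, so a box that departs from a pattern at a fixed letter gave no match. Lack of a match therefore does not show that a box is absent. A match is a run of letters and not a site shown to be bound, and its part in the rises was not tested.

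MHCII+CD11c- macrophages held more RNA than MHCIIlow macrophages for the class II machinery (H2-Ab1 7.47-fold by the means), for the monocyte receptors Ccr2 and Cx3cr1 (3.14-fold and 3.01-fold), for the T cell attractant Cxcl9 (10.01-fold) and for the receptor kinase Axl (2.59-fold). They held less for receptors of perivascular macrophages, 10.4-fold less for Lyve1, 4.07-fold less for Cd163 and 9.56-fold less for Timd4, for all genes of the Cd209 lectin cluster, for a cluster of Ccl2-type chemokines and for immediate early genes. General macrophage genes such as Adgre1 and Cd68, and the lipid-associated genes Trem2 and Gpnmb, did not pass the test. The Ccr2 and Cx3cr1 differences no longer passed it without the libraries numbered 1. Of 21 monocyte genes tested, these 2 among them, 6 were higher, 2 were lower and 13 did not pass. Of 20 immediate early genes tested 13 were lower. Without a term for the replicate number 8 were lower in the obese libraries and 3 in all 21 libraries.

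A gene is written to have risen or fallen where its level in MHCII+CD11c- macrophages was higher or lower than in MHCIIlow macrophages at an adjusted p under 0.05 in edgeR's quasi-likelihood test, with pairs of equal number as a term. Of 20081 genes tested, 1225 rose (6.10%) and 1582 fell (7.88%), 14.0% in all. At least 2-fold changes were found for 238 that rose (1.19%) and 433 that fell (2.16%), together 3.34% of genes tested. The groups of 3 libraries did not overlap for 5403 genes, which is 26.9%. Among the 8478 genes whose higher group averaged 10 CPM or more, 22.9% were called, and the share of a gene list is read against this too. The lists below for oxidative phosphorylation, cholesterol synthesis, glycolysis, cell cycle, costimulation, sterol efflux, lysosome and integrins had 0 to 26.7% called, near or below that share. Here and below, pair 1, 2 and 3 are the libraries of equal number, and the count without the pair term was 1362. It was 1299, 1418 and 1540 without MHCII+CD11c- replicate 1, 2 or 3, and 1604 without MHCIIlow replicate 1. It was 1558, 1360 and 1404 without pair 1, 2 or 3. Replicate 1 stood apart in both populations: across genes, log2 levels of replicates 2 and 3 had a Pearson r of 0.993 in each population, and replicate 1 had 0.977 and 0.984 with the other MHCII+CD11c- libraries and 0.972 and 0.977 with the other MHCIIlow libraries. Levels are given as CPM, counts scaled by library size and TMM factor. In these bulk samples fewer cells expressing a gene cannot be told apart from less RNA per cell.

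**Figure D1:**
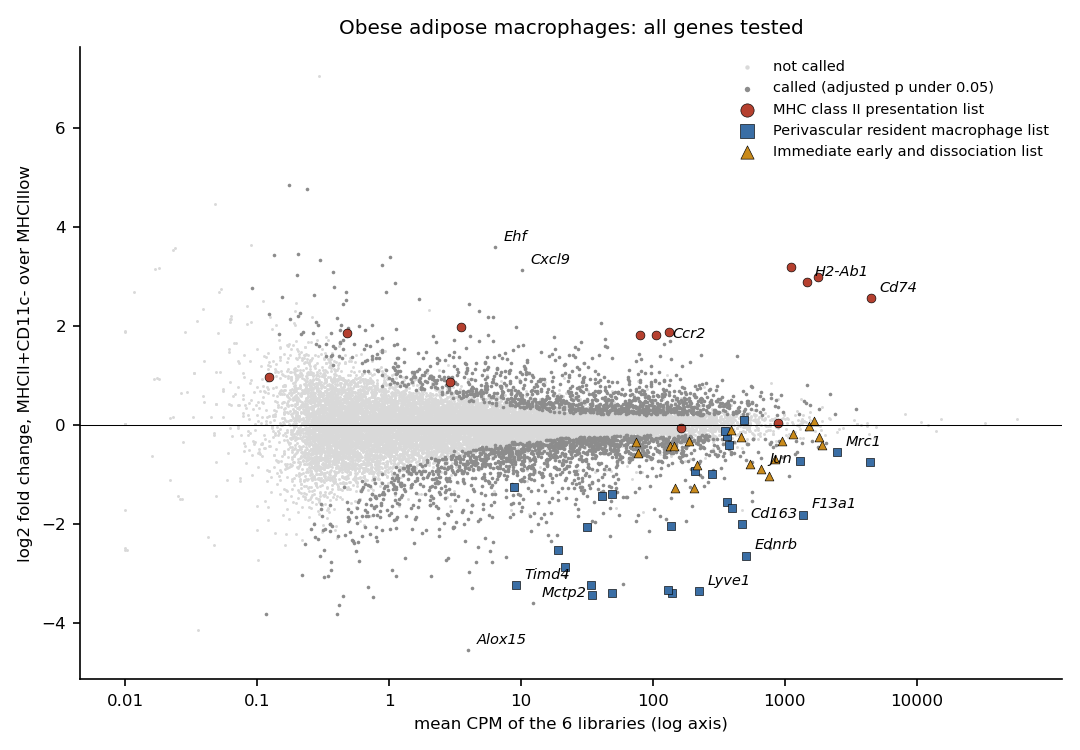
Log2 fold change (MHCII+CD11c- over MHCIIlow) against the mean CPM of the 6 libraries on a log axis, 1 point per gene tested. The class II genes (circles) reach 3.18 at the top, the perivascular list (squares) reaches -3.44 at the bottom, and called genes of every level lie on both sides of 0. Genes with a mean under 0.01 CPM are drawn at 0.01.

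H2-Ab1, part of the sorted protein, was read first, since it tests the labels. It is the beta chain of a class II molecule (chromosome 17, 34257689 to 34269419, plus strand) and had 2752, 2197 and 2785 CPM in MHCII+CD11c- libraries, against 266, 327 and 443 CPM in MHCIIlow libraries. Its groups did not overlap, and the means differed 7.47-fold. Itgax, which encodes CD11c and was at 59.3, 97.1 and 98.2 CPM in MHCII+CD11c- libraries, against 21.4, 58.2 and 53.6 CPM in MHCIIlow libraries, was higher in every MHCII+CD11c- library and had a log2 fold change of 0.97 (SE 0.25, adjusted p = 0.0383, and 0.129 without the pair term). Its call was also lost without MHCII+CD11c- replicate 1, 2 or 3, MHCIIlow replicate 1 or 3 or pair 2 or 3 (adjusted p up to 0.13). In the CD11c-sorted MHCII+CD11c+ macrophages Itgax stood at 479, 647 and 630.3 CPM. Macrophage genes were present in both populations. Adgre1, the F4/80 antigen, was at 810.0, 999 and 1113 CPM in MHCII+CD11c- libraries, against 711, 977 and 991 CPM in MHCIIlow libraries (log2 fold change 0.12, SE 0.11, adjusted p = 0.512). Cd68, a lysosomal glycoprotein, was at 510.1, 616 and 695 CPM in MHCII+CD11c- libraries, against 584, 637 and 642 CPM in MHCIIlow libraries (log2 fold change -0.06, SE 0.08, adjusted p = 0.69). The groups overlapped for both genes.

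Class II genes were higher in MHCII+CD11c- macrophages as a group, which describes the gate since the cells were sorted on class II protein. Of the list, 10 rose and 0 fell of 13 tested, with a median log2 fold change of 1.85, and 9 rose and 0 fell without the pair term. With 1 library or 1 pair left out 9 or 10 rose. H2-Aa, the alpha chain (chromosome 17, 34282744 to 34287823, minus strand), was at 3372, 2741 and 3333 CPM in MHCII+CD11c- libraries, against 324, 374 and 481 CPM in MHCIIlow libraries (log2 fold change 2.98, SE 0.15, adjusted p = 1.6e-06). H2-Eb1 (chromosome 17, 34305867 to 34316674, plus strand) was at 2207, 1715 and 2124 CPM in MHCII+CD11c- libraries, against 162, 215 and 278 CPM in MHCIIlow libraries (log2 fold change 3.18, SE 0.22, adjusted p = 4.75e-05). The invariant chain Cd74 was at 8292, 6740.5 and 8199 CPM in MHCII+CD11c- libraries, against 1065, 1232 and 1632 CPM in MHCIIlow libraries (log2 fold change 2.55, SE 0.14, adjusted p = 1.73e-06). In all 3 genes the lowest MHCII+CD11c- library lay above the highest MHCIIlow library by a wide margin, and MHCIIlow replicate 3 was the highest of its group.

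Genes for the loading proteins and the regulator, which are not class II chains themselves, rose too. Ciita, the class II coactivator, was at 131, 115 and 128 CPM in MHCII+CD11c- libraries, against 27.5, 36.4 and 42.3 CPM in MHCIIlow libraries (log2 fold change 1.80, SE 0.16, adjusted p = 0.000129). H2-DMa and H2-DMb1, which exchange the invariant chain peptide for antigen, had log2 fold changes of 1.81 (SE 0.09) and 1.88 (SE 0.15). Exons on the other strand overlap Ciita and H2-DMa, and no source used here states whether counting used the strand. H2-Ob, a chain of the H2-DM inhibitor, was at 4.82, 3.16 and 3.31 CPM in MHCII+CD11c- libraries, against 3.01, 1.71 and 1.51 CPM in MHCIIlow libraries (log2 fold change 0.86, SE 0.20, adjusted p = 0.0128, and 0.158 without the pair term). Its call was lost without pair 2 or 3 (adjusted p up to 0.104). The cathepsin Ctss, which trims the invariant chain (log2 fold change 0.04, SE 0.07, adjusted p = 0.779), the reductase Ifi30 (log2 fold change -0.07, SE 0.09, adjusted p = 0.683) and H2-Oa (log2 fold change 0.97, SE 0.71, adjusted p = 0.415) did not pass the test. All class II chain genes and both H2-DM families lie between 34092340 and 34341412 on chromosome 17, and near-identical family members can share reads.

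Among costimulatory and checkpoint ligands, which set how a T cell answers to antigen, 3 rose and 0 fell of 13 tested, with a median log2 fold change of 0.39, and 1 rose and 0 fell without the pair term. Cd83, a surface protein that stabilises class II, was at 761, 783 and 857 CPM in MHCII+CD11c- libraries, against 557, 551 and 559 CPM in MHCIIlow libraries (log2 fold change 0.51, SE 0.08, adjusted p = 0.00142). Cd274, the ligand PD-L1, was at 45.3, 24.6 and 41.8 CPM in MHCII+CD11c- libraries, against 18.3, 16.2 and 19.2 CPM in MHCIIlow libraries (log2 fold change 1.00, SE 0.12, adjusted p = 0.000272, and 0.0538 without the pair term). Exons on the other strand overlap it. The groups did not overlap for either gene. Cd276 also rose, but its adjusted p was 0.106 without the pair term, and its call was lost without MHCII+CD11c- replicate 1 or 3, MHCIIlow replicate 1 or 2 or pair 1, 2 or 3 (adjusted p up to 0.228). Cd80, Cd86 and Cd40, which deliver or receive costimulation, had log2 fold changes of -0.08, -0.28 and 0.17, with adjusted p-values of 0.688, 0.108 and 0.438.

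Outside the class II list, the largest rise by the naming rule was that of Ehf, an ETS family transcription factor best known from epithelium (chromosome 2, 103263433 to 103303278, minus strand). It was at 10.3, 10.6 and 14.5 CPM in MHCII+CD11c- libraries, against 0.584, 1.15 and 1.19 CPM in MHCIIlow libraries (log2 fold change 3.59, SE 0.25, adjusted p = 1.22e-05). In the other obese populations Ehf stood at 12.03, 7.03 and 10.04 CPM in MHCII+CD11c+ libraries and 54.1, 33.3 and 49.6 CPM in P3 libraries. Each MHCII+CD11c- library held more Ehf than each MHCIIlow library and less than each P3 library. Slamf8, an immunoglobulin family receptor of myeloid cells, was at 30.03, 20.6 and 31.8 CPM in MHCII+CD11c- libraries, against 9.69, 6.22 and 7.93 CPM in MHCIIlow libraries (log2 fold change 1.77, SE 0.12, adjusted p = 1.73e-06). In both genes every MHCII+CD11c- library was above every MHCIIlow library. Ear2, an eosinophil-type ribonuclease with near-identical relatives, and Rab11fip1, of recycling endosomes, had log2 fold changes of 1.97 (SE 0.33) and 1.70 (SE 0.15). Plbd1, a phospholipase B domain protein, was at 110.2, 31.4 and 54.6 CPM in MHCII+CD11c- libraries, against 22.5, 8.71 and 13.6 CPM in MHCIIlow libraries, with a log2 fold change of 2.06 (SE 0.20). Replicate 1 was the highest library for Plbd1 in both groups. Wnt11, a secreted Wnt ligand, was likewise highest in replicate 1 of both groups, at 18.3, 4.94 and 7.19 CPM in MHCII+CD11c- libraries, against 3.04, 1.93 and 1.26 CPM in MHCIIlow libraries (log2 fold change 2.19, SE 0.25, adjusted p = 0.00055, and 0.0591 without the pair term).

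**Figure D2:**
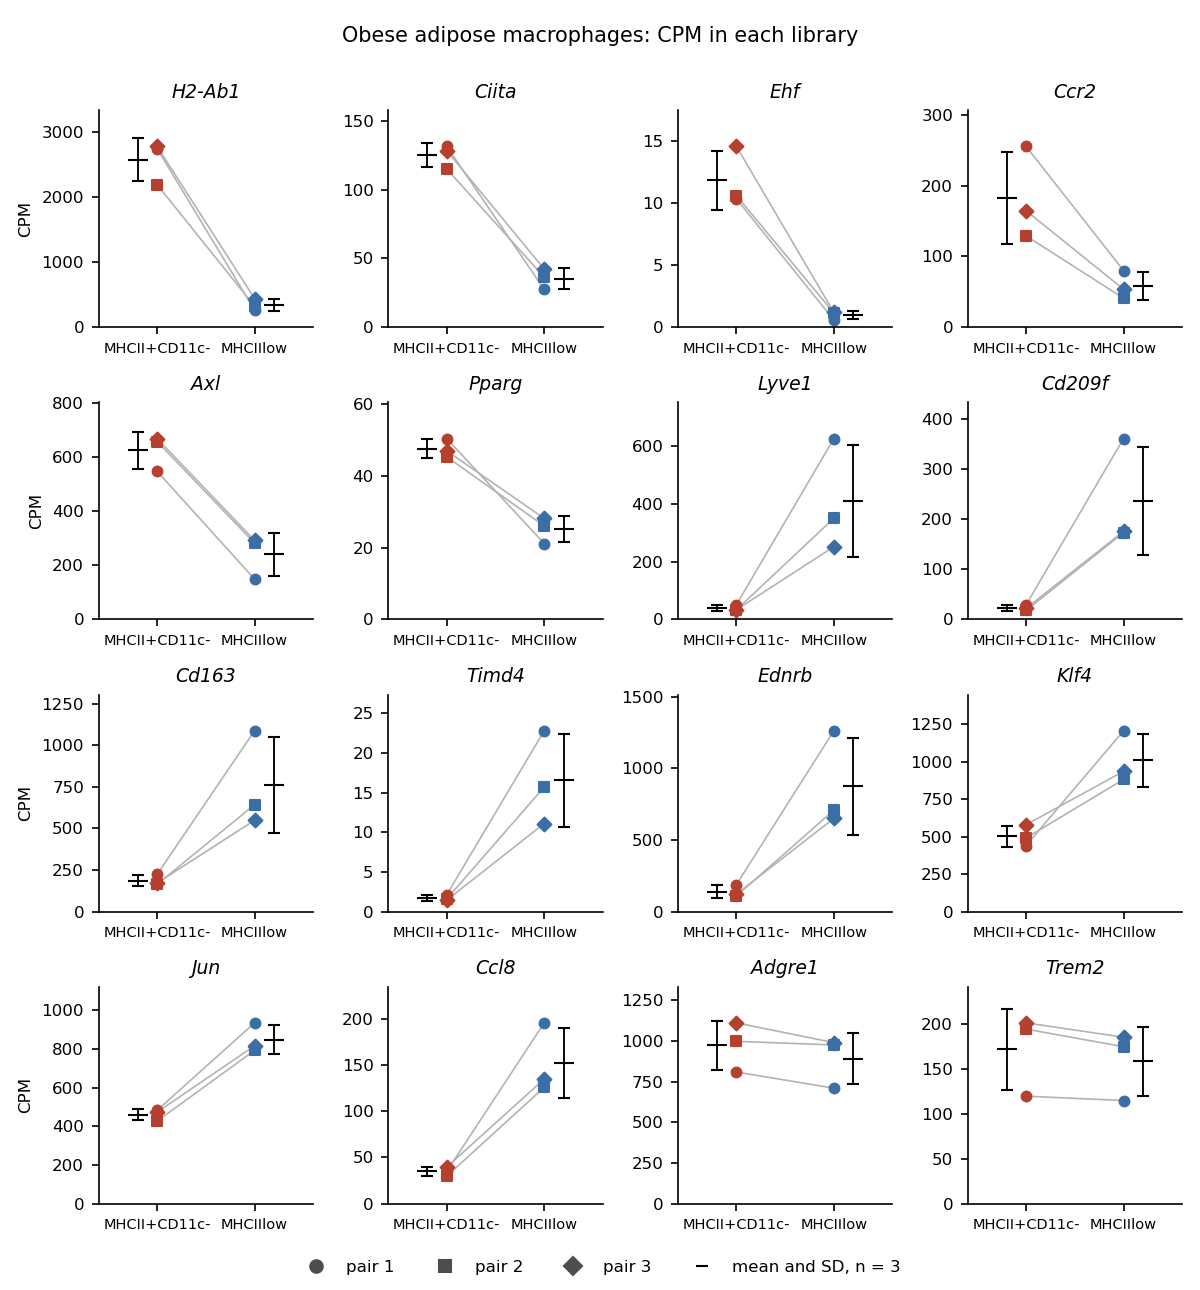
CPM of 16 genes in each obese library, MHCII+CD11c- (left, red) and MHCIIlow (right, blue). Lines join libraries of equal number and the black bars give the mean and SD of 3 libraries. The groups do not overlap for any gene shown except Adgre1 and Trem2, and replicate 1 is the highest MHCIIlow library for Lyve1, Cd209f, Cd163, Timd4 and Ednrb.

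Genes of perivascular resident macrophages were lower in MHCII+CD11c- macrophages, and this list held more falls than any other of the 42 lists. Of the list, 0 rose and 21 fell of 28 tested, with a median log2 fold change of -1.74, against a median of -0.01 over all genes tested. Without the pair term 19 fell, and 16 to 22 fell with 1 library or 1 pair left out. The sorting protein is not part of this list. Lyve1, a hyaluronan receptor (chromosome 7, 110850607 to 110863239, minus strand), was at 51.5, 33.5 and 33.6 CPM in MHCII+CD11c- libraries, against 627, 351 and 252 CPM in MHCIIlow libraries (log2 fold change -3.35, SE 0.41, adjusted p = 0.00219). Cd163, the receptor for haptoglobin and hemoglobin (chromosome 6, 124304656 to 124330527, plus strand), was at 224, 164 and 172 CPM in MHCII+CD11c- libraries, against 1087, 642 and 548 CPM in MHCIIlow libraries (log2 fold change -2.01, SE 0.20, adjusted p = 0.000373). Timd4, which binds phosphatidylserine on dying cells (chromosome 11, 46810800 to 46844332, plus strand), was at 2.13, 1.61 and 1.44 CPM in MHCII+CD11c- libraries, against 22.8, 15.7 and 11.1 CPM in MHCIIlow libraries (log2 fold change -3.24, SE 0.26, adjusted p = 2.6e-05). All MHCIIlow libraries lay above all MHCII+CD11c- libraries for these receptors, and MHCIIlow replicate 1 was the highest of the 6.

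Mrc1, the mannose receptor, changed less, with 2078, 1921 and 2027 CPM in MHCII+CD11c- libraries, against 3569, 2721 and 2530.3 CPM in MHCIIlow libraries (log2 fold change -0.56, SE 0.12, adjusted p = 0.00711). The endothelin receptor Ednrb was at 189, 109.6 and 122 CPM in MHCII+CD11c- libraries, against 1263, 708 and 651 CPM in MHCIIlow libraries (log2 fold change -2.64, SE 0.27, adjusted p = 0.000678). Fcna, a ficolin that binds microbial sugars, was at 26.5, 24.7 and 21.97 CPM in MHCII+CD11c- libraries, against 373, 218 and 178 CPM in MHCIIlow libraries (log2 fold change -3.39, SE 0.38, adjusted p = 0.00159). Exons on the other strand overlap it. Vsig4, a complement receptor, was at 3.74, 7.71 and 4.94 CPM in MHCII+CD11c- libraries, against 42.4, 38.5 and 31.3 CPM in MHCIIlow libraries (log2 fold change -2.87, SE 0.39, adjusted p = 0.00238). The groups stood apart for each of these genes. Ltc4s, which makes leukotriene C4, had a log2 fold change of -2.53 (SE 0.19). F13a1, the A subunit of coagulation factor XIII, was at 857, 433 and 517 CPM in MHCII+CD11c- libraries, against 3365, 1592 and 1460.2 CPM in MHCIIlow libraries (log2 fold change -1.82, SE 0.26, adjusted p = 0.00319). Cbr2, a carbonyl reductase, had a log2 fold change of -2.05 (SE 0.36), a call lost without MHCII+CD11c- replicate 2, MHCIIlow replicate 1 or pair 2 (adjusted p up to 0.113). The bridging protein Gas6 fell by 1.57 on the log2 scale (SE 0.34), lost without MHCII+CD11c- replicate 1, 2 or 3, MHCIIlow replicate 1 or pair 2 or 3 (adjusted p up to 0.107). The transcription factor Maf fell by 1.00 on the log2 scale (SE 0.24), lost without MHCII+CD11c- replicate 1, 2 or 3, MHCIIlow replicate 1 or pair 1, 2 or 3 (adjusted p up to 0.103). Folr2, a folate receptor used to mark these cells, was at 21.3, 30.6 and 32.7 CPM in MHCII+CD11c- libraries, against 85.6, 59.1 and 64.5 CPM in MHCIIlow libraries and missed the threshold (log2 fold change -1.398, SE 0.38, adjusted p = 0.053). Igf1, Pf4, Siglec1, Stab1, Selenop and Retnla also missed it, with log2 fold changes between -1.67 in Retnla and 0.11 in Igf1.

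The Cd209 lectins, relatives of human DC-SIGN that bind sugars, fell together. All 7 genes of the cluster on chromosome 8, between 3743397 and 4137707, passed the test. Cd209f was at 29.3, 18.05 and 22.1 CPM in MHCII+CD11c- libraries, against 361, 173 and 176 CPM in MHCIIlow libraries (log2 fold change -3.33, SE 0.28, adjusted p = 0.000269). Cd209b was at 9.86, 3.92 and 5.25 CPM in MHCII+CD11c- libraries, against 104, 37.9 and 41.01 CPM in MHCIIlow libraries (log2 fold change -3.23, SE 0.13, adjusted p = 2.91e-08). Cd209d and Cd209g had log2 fold changes of -3.44 (SE 0.24) and -3.40 (SE 0.28), and Cd209a and Cd209e of -2.36 (SE 0.15) and -2.68 (SE 0.34). Cd209c, which was added after its values were seen, had a log2 fold change of -1.62 (SE 0.16). These genes resemble each other in sequence, so that counts may be shared among them. Of the other C-type lectins, Clec10a, a receptor for galactose-type sugars, had a log2 fold change of -0.94 (SE 0.11). Clec4b1 rose, at 28.3, 24.7 and 27.3 CPM in MHCII+CD11c- libraries, against 7.33, 8.62 and 11.7 CPM in MHCIIlow libraries (log2 fold change 1.54, SE 0.15, adjusted p = 5.03e-05), as did other lectins. Among them were Clec4a2 (log2 fold change 0.57, SE 0.09) and Clec12a (log2 fold change 0.45, SE 0.08, adjusted p = 0.159 without the pair term). Over the whole lectin list, 7 rose and 8 fell of 19 tested, with a median log2 fold change of -0.18, and 3 rose and 8 fell without the pair term. With libraries left out, the number that rose was 3 without pair 3 and 4 without MHCII+CD11c- replicate 1 or 3, MHCIIlow replicate 1 or pair 1 or 2.

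Among the largest falls outside these families were Mctp2, a membrane protein with C2 domains (chromosome 7, 72077830 to 72306608, minus strand), Padi4, which turns arginine into citrulline, and Enpep, a peptidase that acts on angiotensin. Mctp2 was at 1.68, 1.81 and 2.09 CPM in MHCII+CD11c- libraries, against 32.8, 17.9 and 17.9 CPM in MHCIIlow libraries (log2 fold change -3.60, SE 0.27, adjusted p = 1.27e-05). Padi4 was at 2.03, 1.68 and 0.988 CPM in MHCII+CD11c- libraries, against 12.5, 10.6 and 8.44 CPM in MHCIIlow libraries (log2 fold change -2.76, SE 0.17, adjusted p = 1.6e-06). Enpep was at 11.2, 12.3 and 10.99 CPM in MHCII+CD11c- libraries, against 162, 80.96 and 76.5 CPM in MHCIIlow libraries (log2 fold change -3.21, SE 0.41, adjusted p = 0.00254). Dnm1, a dynamin, had a log2 fold change of -2.66 (SE 0.40). Cd5l, a secreted protein of tissue macrophages, was at 1.57, 9.22 and 6.58 CPM in MHCII+CD11c- libraries, against 11.8, 53.5 and 28.9 CPM in MHCIIlow libraries (log2 fold change -2.55, SE 0.32, adjusted p = 0.00132, and 0.157 without the pair term). It was lower in MHCII+CD11c- macrophages in each of the 3 pairs, although replicate 1 of both groups was far below the other 2 pairs.

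**Figure D3:**
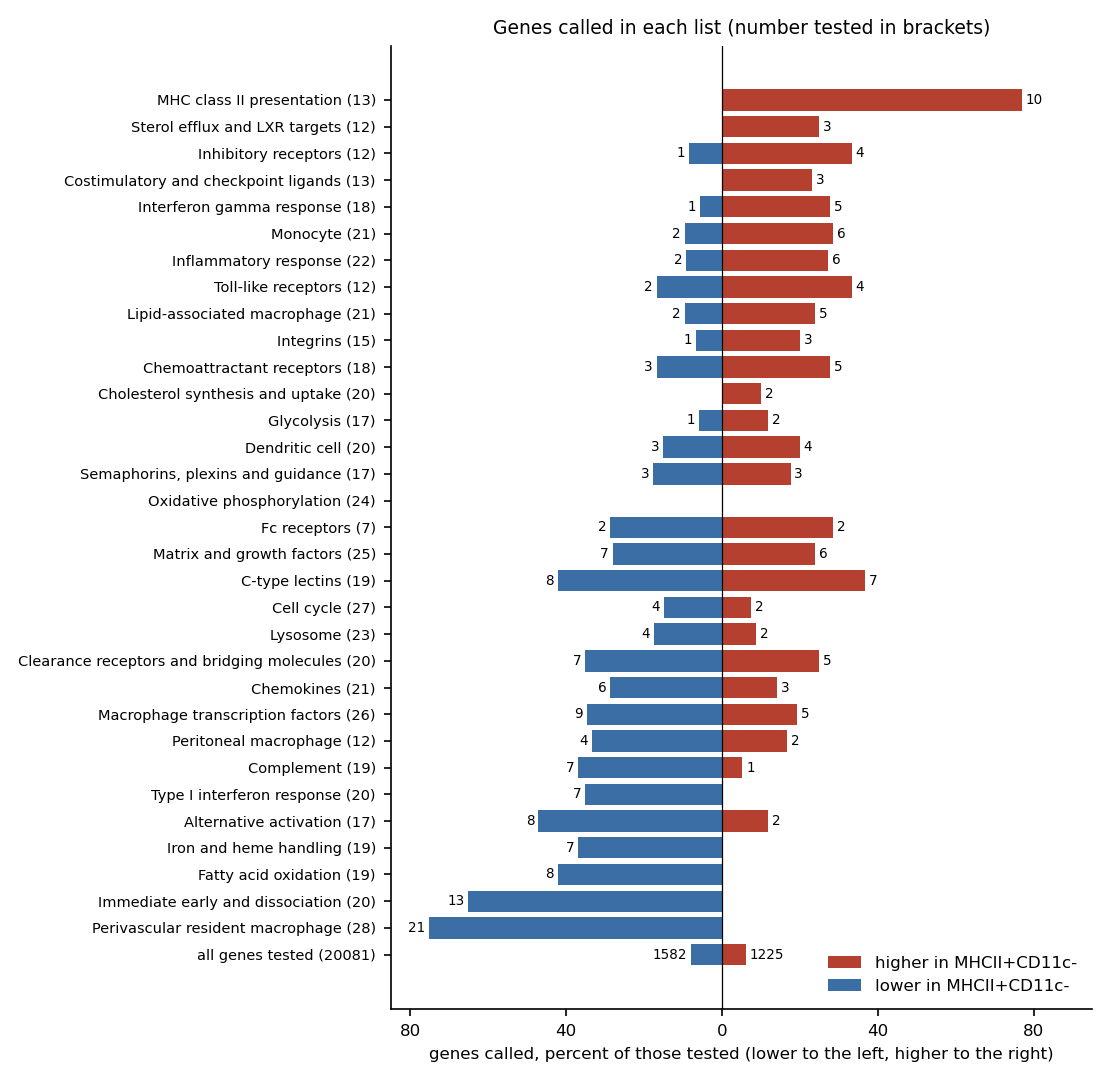
Share of the tested genes of each list that rose (red, right) or fell (blue, left) in MHCII+CD11c- macrophages, with the number of genes at the bar ends. The bottom row gives all 20081 genes tested. The class II list lies furthest to the right, and the perivascular and immediate early lists furthest to the left.

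Receptors that clear particles and dying cells moved in both directions: 5 rose and 7 fell of 20 tested, with a median log2 fold change of -0.19, and 3 rose and 6 fell without the pair term. Axl, a receptor kinase for Gas6 and Pros1, was at 548, 659 and 669 CPM in MHCII+CD11c- libraries, against 149, 283 and 293 CPM in MHCIIlow libraries (log2 fold change 1.39, SE 0.18, adjusted p = 0.00113). Olr1, a receptor for oxidised lipoprotein, was at 34.99, 24.2 and 28.9 CPM in MHCII+CD11c- libraries, against 16.3, 9.80 and 12.2 CPM in MHCIIlow libraries (log2 fold change 1.20, SE 0.08, adjusted p = 1.87e-06). The integrin chain Itgav was at 350.4, 435 and 405 CPM in MHCII+CD11c- libraries, against 220.2, 298 and 286 CPM in MHCIIlow libraries (log2 fold change 0.56, SE 0.07, adjusted p = 0.000158). No library of one group reached the other for these 3 genes. Pros1, a ligand of Axl, was lower at 133, 169 and 167 CPM in MHCII+CD11c- libraries, against 394, 294 and 267 CPM in MHCIIlow libraries (log2 fold change -1.05, SE 0.19, adjusted p = 0.00661). Marco, a scavenger receptor, averaged 0.721 ± 0.373 CPM in MHCII+CD11c- and 4.66 ± 1.32 CPM in MHCIIlow macrophages (SD, n = 3 each), with a log2 fold change of -2.73 (SE 0.47, adjusted p = 0.00378). Mertk, the relative of Axl, was at 66.03, 93.4 and 97.6 CPM in MHCII+CD11c- libraries, against 134, 139.5 and 134 CPM in MHCIIlow libraries and did not pass the test (log2 fold change -0.72, SE 0.24, adjusted p = 0.0858), although its groups did not overlap. Stab2 and Lrp1, further scavenger receptors, had log2 fold changes of 0.49 and 0.32, with adjusted p-values of 0.354 and 0.319 without the pair term. The Stab2 call was lost without MHCII+CD11c- replicate 2 or 3, MHCIIlow replicate 2 or 3 or pair 2 or 3 (adjusted p up to 0.263), and the Lrp1 call without MHCII+CD11c- replicate 1, 2 or 3, MHCIIlow replicate 1 or pair 1, 2 or 3 (adjusted p up to 0.218). With libraries left out the number that rose was 3 without MHCII+CD11c- replicate 2 or 3 or pair 2 or 3.

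Iron and heme genes fell or did not pass the test: 0 rose and 7 fell of 19 tested, with a median log2 fold change of -0.06, and 0 rose and 5 fell without the pair term. With MHCII+CD11c- replicate 2 left out 4 fell. Tfrc, the transferrin receptor, was at 58.97, 47.2 and 62.05 CPM in MHCII+CD11c- libraries, against 172, 116 and 111 CPM in MHCIIlow libraries (log2 fold change -1.25, SE 0.14, adjusted p = 0.000294). Slc40a1, the iron exporter ferroportin, was at 7.41, 18.9 and 14.5 CPM in MHCII+CD11c- libraries, against 34.8, 49.5 and 37.9 CPM in MHCIIlow libraries (log2 fold change -1.70, SE 0.26, adjusted p = 0.00324, and 0.101 without the pair term). Hmox1, which degrades heme, was at 1128, 425 and 574 CPM in MHCII+CD11c- libraries, against 2250.2, 947 and 1094 CPM in MHCIIlow libraries (log2 fold change -1.04, SE 0.21, adjusted p = 0.0135, and 0.236 without the pair term). Its call was lost without MHCII+CD11c- replicate 2 or 3, MHCIIlow replicate 1 or pair 2 (adjusted p up to 0.127). In each of the 3 pairs the MHCII+CD11c- library was the lower one for all 3 genes. The groups overlapped only for Hmox1, of which replicate 1 held the most in both.

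Among complement genes, 1 rose and 7 fell of 19 tested, with a median log2 fold change of -0.24, and 0 rose and 6 fell without the pair term. C6, of the membrane attack complex, was at 2.31, 6.46 and 6.04 CPM in MHCII+CD11c- libraries, against 33.04, 46.02 and 34.5 CPM in MHCIIlow libraries (log2 fold change -3.06, SE 0.26, adjusted p = 6.78e-05). C4b had a log2 fold change of -2.49 (SE 0.47), a call lost without MHCII+CD11c- replicate 1, 2 or 3, MHCIIlow replicate 1 or pair 2 or 3 (adjusted p up to 0.0731), and a near-identical copy may share its reads. C1qa, C1qb and C1qc, the chains of the first component, had log2 fold changes of -0.24, 0.20 and -0.14 and did not pass the test. For C6 every MHCII+CD11c- library was below every MHCIIlow library.

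Among chemokines, 3 rose and 6 fell of 21 tested, with a median log2 fold change of -0.12, and 3 rose and 6 fell without the pair term. Ccl8, Ccl2, Ccl7 and Ccl12, monocyte attractants that lie within 82035571 to 82116799 on chromosome 11, all fell. Ccl8 was at 34.99, 29.8 and 39.7 CPM in MHCII+CD11c- libraries, against 195, 126 and 135 CPM in MHCIIlow libraries (log2 fold change -2.15, SE 0.29, adjusted p = 0.00239). Ccl2 was at 146, 60.5 and 78.5 CPM in MHCII+CD11c- libraries, against 495, 204 and 196 CPM in MHCIIlow libraries (log2 fold change -1.64, SE 0.27, adjusted p = 0.00578). Ccl7 and Ccl12 had log2 fold changes of -1.90 (SE 0.31) and -1.60 (SE 0.21). The Ccl7 call was lost without pair 2 (adjusted p up to 0.0677). Ccl11, an eosinophil attractant between Ccl7 and Ccl12 that was looked up after the others were seen, had a log2 fold change of 0.16 (SE 0.13, adjusted p = 0.5). Ccl24, also an eosinophil attractant, was at 18.003, 7.84 and 10.8 CPM in MHCII+CD11c- libraries, against 81.9, 35.7 and 36.3 CPM in MHCIIlow libraries (log2 fold change -2.06, SE 0.16, adjusted p = 1.09e-05). Ccl6 fell by 0.67 on the log2 scale (SE 0.11). Both Ccl2 and Ccl24 were highest in replicate 1 of each population, and no groups overlapped. Those that rose act on receptors found on T cells: Cxcl9, the interferon-induced ligand of CXCR3, was at 8.91, 12.1 and 34.5 CPM in MHCII+CD11c- libraries, against 1.58, 1.71 and 2.26 CPM in MHCIIlow libraries (log2 fold change 3.12, SE 0.23, adjusted p = 9.95e-06). Cxcl16 was at 249.7, 215 and 234 CPM in MHCII+CD11c- libraries, against 84.3, 107 and 112 CPM in MHCIIlow libraries (log2 fold change 1.18, SE 0.14, adjusted p = 0.000353). Exons on the other strand overlap it. Ccl5, the third, had a log2 fold change of 1.05 (SE 0.15, adjusted p = 0.000511, and 0.0599 without the pair term). MHCII+CD11c- replicate 3 was the highest Cxcl9 library, and the lowest MHCII+CD11c- library was still above all MHCIIlow libraries.

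Receptors for chemoattractants moved both ways: 5 rose and 3 fell of 18 tested, with a median log2 fold change of 0.06, and 4 rose and 2 fell without the pair term. Ccr2, the Ccl2 receptor of monocytes, was at 255, 129 and 165 CPM in MHCII+CD11c- libraries, against 80.1, 41.1 and 53.8 CPM in MHCIIlow libraries (log2 fold change 1.63, SE 0.25, adjusted p = 0.0043). Cx3cr1, the fractalkine receptor, was at 46.004, 28.9 and 40.6 CPM in MHCII+CD11c- libraries, against 12.9, 9.80 and 15.6 CPM in MHCIIlow libraries (log2 fold change 1.58, SE 0.24, adjusted p = 0.00367). Exons on the other strand overlap it. Without pair 1 both calls were lost, at adjusted p = 0.0702 for Ccr2 and 0.0861 for Cx3cr1. Ccrl2, an atypical chemoattractant receptor, was at 154, 163 and 185 CPM in MHCII+CD11c- libraries, against 73.6, 98.9 and 115 CPM in MHCIIlow libraries (log2 fold change 0.81, SE 0.10, adjusted p = 0.00034). Ccr1, a receptor for several CC chemokines, was lower at 70.6, 32.3 and 40.6 CPM in MHCII+CD11c- libraries, against 242, 121 and 104 CPM in MHCIIlow libraries (log2 fold change -1.70, SE 0.27, adjusted p = 0.00477). Cxcr3, the receptor of Cxcl9, was at 1.01, 1.32 and 1.18 CPM in MHCII+CD11c- libraries, against 6.33, 4.08 and 4.48 CPM in MHCIIlow libraries (log2 fold change -2.08, SE 0.22, adjusted p = 7.79e-05). The groups did not overlap for any of these 5 receptors.

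The monocyte list, which holds Ccr2 and Cx3cr1, had more rises than falls: 6 rose and 2 fell of 21 tested, with a median log2 fold change of 0.34, and 3 rose and 2 fell without the pair term. Without pair 1 the number that rose was 2, and without pair 3 it was 3. Ly6c2, which marks classical monocytes, was at 0.909, 1.15 and 2.09 CPM in MHCII+CD11c- libraries, against 0.409, 0.809 and 0.934 CPM in MHCIIlow libraries (log2 fold change 0.93, SE 0.28, adjusted p = 0.0389, and 0.168 without the pair term). Its call was lost without MHCII+CD11c- replicate 1 or 3, MHCIIlow replicate 1, 2 or 3 or pair 1, 2 or 3 (adjusted p up to 0.241). Plac8 was at 1.43, 2.37 and 3.04 CPM in MHCII+CD11c- libraries, against 0.963, 1.31 and 1.19 CPM in MHCIIlow libraries (log2 fold change 0.95, SE 0.23, adjusted p = 0.0134, and 0.0593 without the pair term). That call was lost without MHCII+CD11c- replicate 3 or pair 2 or 3 (adjusted p up to 0.0821). Cd44, a hyaluronan receptor, had a log2 fold change of 0.32 (SE 0.07, adjusted p = 0.00726, and 0.0769 without the pair term), a call lost without pair 3 (adjusted p up to 0.056). Itgam, which encodes CD11b, was lower at 113, 105 and 108 CPM in MHCII+CD11c- libraries, against 144, 137 and 136 CPM in MHCIIlow libraries (log2 fold change -0.36, SE 0.06, adjusted p = 0.00158). Nr4a1, of patrolling monocytes and early responses, was at 196, 226 and 209 CPM in MHCII+CD11c- libraries, against 369, 321 and 263 CPM in MHCIIlow libraries (log2 fold change -0.60, SE 0.11, adjusted p = 0.00366). The groups overlapped for Ly6c2 and did not for Plac8, Itgam and Nr4a1. For dendritic cells, 4 rose and 3 fell of 20 tested, with a median log2 fold change of 0.20, and 2 rose and 2 fell without the pair term. The number that rose was 2 without MHCII+CD11c- replicate 3 or pair 1, 2 or 3. Mycl, a Myc relative, and the transcription factor Batf3 had log2 fold changes of 1.75 and 0.67, and Batf3 had an adjusted p of 0.0698 without the pair term. The Mycl call was lost without pair 1 (adjusted p up to 0.0637), and the Batf3 call without MHCII+CD11c- replicate 2 or pair 3 (adjusted p up to 0.0524). Flt3 and Zbtb46 define conventional dendritic cells. Flt3 was at 0.629, 0.263 and 0.76 CPM in MHCII+CD11c- libraries, against 0.233, 0.187 and 0.161 CPM in MHCIIlow libraries (log2 fold change 1.46, SE 0.50, adjusted p = 0.0782). Zbtb46 was at 5.03, 6.39 and 5.51 CPM in MHCII+CD11c- libraries, against 7.94, 7.03 and 6.22 CPM in MHCIIlow libraries (log2 fold change -0.32, SE 0.22, adjusted p = 0.394), with overlap.

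Lipid-associated macrophage genes are known to mark lipid-laden cells in obese fat. Of 21 tested, 5 rose, 2 fell and 14 did not pass the test, with a median log2 fold change of 0.10. The share called was 33.3%, against 22.9% of genes at 10 CPM or more. Without the pair term 1 rose and 0 fell. The lipid receptor Trem2 was at 119.9, 195 and 202 CPM in MHCII+CD11c- libraries, against 115, 175 and 186 CPM in MHCIIlow libraries (log2 fold change 0.10, SE 0.08, adjusted p = 0.429). Gpnmb was at 411, 770.2 and 722 CPM in MHCII+CD11c- libraries, against 262, 641 and 691 CPM in MHCIIlow libraries (log2 fold change 0.30, SE 0.16, adjusted p = 0.266). Replicate 1 was the lowest of both groups for both genes. A span of 2 SE on either side of the log2 fold change ran from -0.05 to 0.25 for Trem2 and from -0.02 to 0.62 for Gpnmb. The groups overlapped for both. Acp5, an acid phosphatase, was at 49.01, 47.6 and 45.6 CPM in MHCII+CD11c- libraries, against 24.7, 34.9 and 28.9 CPM in MHCIIlow libraries (log2 fold change 0.69, SE 0.11, adjusted p = 0.00164). Fabp4, a fatty acid carrier that endothelial cells also express, was at 89.9, 137 and 122 CPM in MHCII+CD11c- libraries, against 32.9, 70.3 and 68.2 CPM in MHCIIlow libraries (log2 fold change 1.05, SE 0.17, adjusted p = 0.00415, and 0.0551 without the pair term). Lpl, Fabp5 and Atp6v0d2 also rose, with log2 fold changes of 0.62, 0.67 and 0.48, but their adjusted p-values were 0.293, 0.184 and 0.532 without the pair term. The calls of all 3 were lost without MHCII+CD11c- replicate 1, 2 or 3 or pair 2 or 3, and those of Fabp5 and Atp6v0d2 also without MHCIIlow replicate 1. The Atp6v0d2 call was lost without MHCIIlow replicate 2 or pair 1 too. Ctsl and Ctsd, cathepsins, fell, with log2 fold changes of -0.55 (SE 0.09) and -0.41 (SE 0.07), and adjusted p-values of 0.121 and 0.228 without the pair term. With libraries left out the number that rose was 2 without MHCII+CD11c- replicate 1, 2 or 3 or pair 2 or 3 and 3 without MHCIIlow replicate 1.

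Sterol genes gave 3 calls: 3 rose and 0 fell of 12 tested, with a median log2 fold change of 0.09, and 1 rose and 0 fell without the pair term. Nr1h3, the sterol-sensing receptor LXR alpha, was at 32.1, 43.97 and 39.7 CPM in MHCII+CD11c- libraries, against 13.9, 24.5 and 22.1 CPM in MHCIIlow libraries (log2 fold change 0.95, SE 0.11, adjusted p = 0.000186). Nceh1, a cholesterol ester hydrolase, was at 348, 374 and 416 CPM in MHCII+CD11c- libraries, against 188, 299 and 316 CPM in MHCIIlow libraries (log2 fold change 0.52, SE 0.10, adjusted p = 0.00401, and 0.0961 without the pair term). Both had groups apart from each other. The sterol exporter Abcg1 was at 254, 318 and 333 CPM in MHCII+CD11c- libraries, against 126, 240.0 and 258 CPM in MHCIIlow libraries (log2 fold change 0.57, SE 0.13, adjusted p = 0.0154, and 0.228 without the pair term). That call was lost without MHCII+CD11c- replicate 1 or 3 or pair 2 (adjusted p up to 0.0698). In the lysosome list 2 rose and 4 fell of 23 tested, with a median log2 fold change of -0.10, and 0 rose and 3 fell without the pair term. With 1 library or 1 pair left out 0 or 1 rose. The growth factor precursor Grn, the sialidase Neu1 and the membrane proteins Lamp1 and Lamp2 fell, with log2 fold changes of -0.60, -0.51, -0.38 and -0.28. In the fits that left out a library or pair, the number that fell was 1 without pair 2 and 2 without MHCII+CD11c- replicate 1. Lamp2 had an adjusted p of 0.0866 without the pair term and was lost without MHCII+CD11c- replicate 1, 2 or 3, MHCIIlow replicate 1 or 2 or pair 1, 2 or 3 (adjusted p up to 0.194). Grn and Lamp1 lost their calls without pair 2, and Lamp1 also without MHCII+CD11c- replicate 1. Of the fatty acid oxidation list 0 rose and 8 fell of 19 tested, with a median log2 fold change of -0.16, and 0 rose and 5 fell without the pair term. The dehydrogenase Acadl had a log2 fold change of -0.44 (SE 0.09). On leaving libraries out the number that fell was 2 without MHCII+CD11c- replicate 1 or pair 2 or 3 and 3 without MHCII+CD11c- replicate 2 or 3 and 5 without MHCIIlow replicate 2 or pair 1. Of 24 oxidative phosphorylation genes edgeR called 0 and DESeq2 0, and 1 had an unadjusted p under 0.05. Among glycolysis genes the glucose transporter Slc2a1 was at 39.2, 37.8 and 41.9 CPM in MHCII+CD11c- libraries, against 19.8, 29.000 and 28.5 CPM in MHCIIlow libraries (log2 fold change 0.62, SE 0.10, adjusted p = 0.00101), while 2 rose and 1 fell of 17 tested, with a median log2 fold change of -0.07, and 1 rose and 1 fell without the pair term. On leaving libraries out the number that rose was 1 without MHCII+CD11c- replicate 1, 2 or 3, MHCIIlow replicate 1 or 3 or pair 1, 2 or 3 and the number that fell was 0 without MHCII+CD11c- replicate 1 or 2, MHCIIlow replicate 1 or pair 2. In cholesterol synthesis 2 rose and 0 fell of 20 tested, with a median log2 fold change of -0.01, and 0 rose and 0 fell without the pair term. In the fits that left out a library or pair, the number that rose was 0 without MHCII+CD11c- replicate 1 or 3, MHCIIlow replicate 1 or 3 or pair 1 or 3 and 1 without MHCII+CD11c- replicate 2 or pair 2.

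Cell cycle genes were called at 22.2%, close to the share among well-expressed genes: 2 rose and 4 fell of 27 tested, with a median log2 fold change of -0.12, and 2 rose and 1 fell without the pair term. Mki67, a proliferation marker, was at 359, 308 and 285 CPM in MHCII+CD11c- libraries, against 303, 295 and 283 CPM in MHCIIlow libraries (log2 fold change 0.10, SE 0.10, adjusted p = 0.567). Mcm2, a replication helicase subunit, was at 38.3, 34.8 and 32.7 CPM in MHCII+CD11c- libraries, against 22.9, 28.6 and 24.4 CPM in MHCIIlow libraries (log2 fold change 0.47, SE 0.09, adjusted p = 0.0037), and the mitotic regulators Cdc20, Ccnb1 and Plk1 fell, with log2 fold changes of -0.72, -0.60 and -0.66. The groups overlapped for Mki67 and did not for Mcm2. On leaving libraries out the number that rose was 1 without MHCII+CD11c- replicate 1 or 3, MHCIIlow replicate 1 or 3 or pair 1 or 3 and the number that fell was 0 without pair 2 and 1 without pair 3 and 2 without MHCII+CD11c- replicate 2 or 3 or MHCIIlow replicate 1. Without the pair term the adjusted p was 0.052 for Ccnb1 and 0.0501 for Plk1. The calls of Cdc20, Ccnb1 and Plk1 were all lost without pair 2.

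Genes of the type I interferon response fell or did not pass the test: 0 rose and 7 fell of 20 tested, with a median log2 fold change of -0.54, and 0 rose and 4 fell without the pair term. Oas2, an RNA sensor, was at 36.5, 30.2 and 28.1 CPM in MHCII+CD11c- libraries, against 78.04, 46.4 and 45.5 CPM in MHCIIlow libraries (log2 fold change -0.84, SE 0.17, adjusted p = 0.01). Stat2, which carries the type I signal, was at 28.5, 29.02 and 32.01 CPM in MHCII+CD11c- libraries, against 48.7, 37.9 and 39.1 CPM in MHCIIlow libraries (log2 fold change -0.50, SE 0.09, adjusted p = 0.00302). With libraries left out the number that fell was 3 without MHCII+CD11c- replicate 1 or MHCIIlow replicate 1 and 4 without MHCII+CD11c- replicate 2 or 3 or pair 1 or 2. Summed over the list the levels were 329, 281 and 314 CPM in MHCII+CD11c- libraries, against 608, 419 and 404 CPM in MHCIIlow libraries, without TMM scaling, and MHCIIlow replicate 1 was the highest. Of the interferon gamma list 5 rose and 1 fell of 18 tested, with a median log2 fold change of 0.33, and 4 rose and 1 fell without the pair term, with Ciita and Cxcl9 described above among the rises. Gbp4, a guanylate-binding protein, was at 5.07, 6.36 and 17.6 CPM in MHCII+CD11c- libraries, against 2.19, 2.92 and 2.87 CPM in MHCIIlow libraries (log2 fold change 1.70, SE 0.27, adjusted p = 0.00213), with MHCII+CD11c- replicate 3 far above the others. Tap1, which pumps peptides for class I, was at 45.5, 36.1 and 48.8 CPM in MHCII+CD11c- libraries, against 28.5, 28.9 and 28.5 CPM in MHCIIlow libraries (log2 fold change 0.58, SE 0.09, adjusted p = 0.000766). Exons on the other strand overlap it. The groups did not overlap for any of these genes.

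Inflammatory genes had more rises than falls: 6 rose and 2 fell of 22 tested, with a median log2 fold change of 0.38, and 2 rose and 2 fell without the pair term. Nlrp3, the inflammasome sensor, was at 365, 297 and 319 CPM in MHCII+CD11c- libraries, against 192, 165 and 182 CPM in MHCIIlow libraries (log2 fold change 0.85, SE 0.08, adjusted p = 3.96e-05). Tnfaip3, which restrains NF-kappaB, was at 1256, 798 and 838 CPM in MHCII+CD11c- libraries, against 602, 598 and 615 CPM in MHCIIlow libraries (log2 fold change 0.62, SE 0.13, adjusted p = 0.00908, and 0.0985 without the pair term). Tlr4, the endotoxin receptor, was lower at 47.7, 51.6 and 53.3 CPM in MHCII+CD11c- libraries, against 88.8, 83.6 and 75.4 CPM in MHCIIlow libraries (log2 fold change -0.72, SE 0.10, adjusted p = 0.000605). Saa3, an acute phase protein, was at 0.559, 1.32 and 0.456 CPM in MHCII+CD11c- libraries, against 12.1, 7.25 and 3.90 CPM in MHCIIlow libraries (log2 fold change -3.29, SE 0.46, adjusted p = 0.00137). All 4 genes had groups without overlap. The cytokines Il1b, Tnf and Il6 had log2 fold changes of 1.00, 0.17 and 0.08 and adjusted p-values of 0.13, 0.679 and 0.738. Without pair 3 the number that rose was 3. The Toll-like receptors, Tlr4 among them, moved both ways: 4 rose and 2 fell of 12 tested, with a median log2 fold change of -0.0018, and 3 rose and 1 fell without the pair term. Tlr1, a receptor for lipopeptides, was at 47.9, 60.7 and 61.6 CPM in MHCII+CD11c- libraries, against 24.4, 31.3 and 31.3 CPM in MHCIIlow libraries (log2 fold change 0.96, SE 0.07, adjusted p = 1.87e-06). Tlr9, a DNA sensor, was at 113, 87.1 and 111 CPM in MHCII+CD11c- libraries, against 59.6, 50.7 and 55.4 CPM in MHCIIlow libraries (log2 fold change 0.89, SE 0.10, adjusted p = 0.000129). Every MHCII+CD11c- library lay above every MHCIIlow library for both.

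Genes of alternative activation fell more often than they rose: 2 rose and 8 fell of 17 tested, with a median log2 fold change of -0.50, and 1 rose and 6 fell without the pair term. Of its falls Cd163, Mrc1, Clec10a, Ccl24 and F13a1 stand in the perivascular list too. Il4ra, the interleukin 4 receptor, was at 315, 220.2 and 253 CPM in MHCII+CD11c- libraries, against 557, 333 and 342 CPM in MHCIIlow libraries (log2 fold change -0.63, SE 0.08, adjusted p = 0.000301, and 0.115 without the pair term). Arg1, which breaks down arginine, was at 4.96, 5.40 and 4.83 CPM in MHCII+CD11c- libraries, against 7.62, 7.28 and 6.57 CPM in MHCIIlow libraries (log2 fold change -0.50, SE 0.16, adjusted p = 0.0486, and 0.182 without the pair term). The call was lost without MHCII+CD11c- replicate 1, 2 or 3, MHCIIlow replicate 1, 2 or 3 or pair 1, 2 or 3 (adjusted p up to 0.295). Retnla, also of this list, was at 348, 76.4 and 202 CPM in MHCII+CD11c- libraries, against 931, 384 and 458 CPM in MHCIIlow libraries and missed the threshold (log2 fold change -1.67, SE 0.45, adjusted p = 0.0538). For all 3 genes the MHCII+CD11c- libraries were below the MHCIIlow libraries, without overlap.

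Transcription factors of macrophages moved both ways: 5 rose and 9 fell of 26 tested, with a median log2 fold change of 0.01, and 2 rose and 4 fell without the pair term. Pparg, a lipid-sensing receptor, was at 50.3, 45.3 and 46.9 CPM in MHCII+CD11c- libraries, against 21.1, 26.04 and 28.1 CPM in MHCIIlow libraries (log2 fold change 0.92, SE 0.09, adjusted p = 4.85e-05). Runx3, a Runt family factor, was at 40.4, 12.98 and 18.4 CPM in MHCII+CD11c- libraries, against 13.6, 5.48 and 7.22 CPM in MHCIIlow libraries (log2 fold change 1.395, SE 0.21, adjusted p = 0.00268, and 0.138 without the pair term). Klf4, a Krüppel-like factor, was lower at 440.5, 491 and 579.7 CPM in MHCII+CD11c- libraries, against 1207, 882 and 936 CPM in MHCIIlow libraries (log2 fold change -1.03, SE 0.14, adjusted p = 0.000835). Its relative Klf2 was at 164, 147 and 159 CPM in MHCII+CD11c- libraries, against 295, 272 and 254 CPM in MHCIIlow libraries (log2 fold change -0.81, SE 0.08, adjusted p = 5.03e-05). Runx3 was highest in replicate 1 of each population and its groups overlapped, while those of Pparg, Klf4 and Klf2 did not. Irf4, a factor of alternative activation, was at 70.1, 42.03 and 49.7 CPM in MHCII+CD11c- libraries, against 155, 83.5 and 76.2 CPM in MHCIIlow libraries (log2 fold change -0.94, SE 0.12, adjusted p = 0.000507, and 0.101 without the pair term). With libraries left out the number that fell was 4 without MHCII+CD11c- replicate 2 or 3, MHCIIlow replicate 1 or pair 2 and 5 without MHCII+CD11c- replicate 1.

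Immediate early genes, which respond within minutes to signals and to tissue digestion, fell in MHCII+CD11c- macrophages: 0 rose and 13 fell of 20 tested, with a median log2 fold change of -0.42, and 0 rose and 8 fell without the pair term. Jun, a subunit of AP-1, was at 483, 427 and 474 CPM in MHCII+CD11c- libraries, against 936, 793 and 817 CPM in MHCIIlow libraries (log2 fold change -0.89, SE 0.08, adjusted p = 1.56e-05). The stress factor Atf3 was at 817, 521 and 586 CPM in MHCII+CD11c- libraries, against 1257, 902 and 926 CPM in MHCIIlow libraries (log2 fold change -0.70, SE 0.09, adjusted p = 0.000241, and 0.0569 without the pair term). The heat shock genes Hspa1b and Hspa1a, near-identical copies, fell, with log2 fold changes of -1.27 (SE 0.08) and -1.27 (SE 0.09). Their edgeR adjusted p-values were 0.318 and 0.216 in a fit of all 21 libraries without the pair term. That fit called 3 genes of the list lower and 0 higher. Summed over the list the levels were 12929.5, 10703 and 12132 CPM in MHCII+CD11c- libraries, against 16719.8, 14287 and 15291 CPM in MHCIIlow libraries. For the sum, Jun and Atf3 all MHCIIlow libraries were above all MHCII+CD11c- libraries. The part of tissue digestion in the falls was not tested.

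Growth factors and matrix genes were mixed: 6 rose and 7 fell of 25 tested, with a median log2 fold change of 0.11, and 3 rose and 3 fell without the pair term. Vegfa, an angiogenic factor, was at 146, 141 and 187 CPM in MHCII+CD11c- libraries, against 57.6, 84.9 and 116 CPM in MHCIIlow libraries (log2 fold change 0.90, SE 0.15, adjusted p = 0.00283). Pdgfc was at 20.7, 24.8 and 29.2 CPM in MHCII+CD11c- libraries, against 80.7, 70.8 and 61.3 CPM in MHCIIlow libraries (log2 fold change -1.55, SE 0.21, adjusted p = 0.00164). Hbegf, a ligand of the EGF receptor, was at 24.99, 20.5 and 25.8 CPM in MHCII+CD11c- libraries, against 87.4, 45.7 and 47.6 CPM in MHCIIlow libraries (log2 fold change -1.33, SE 0.24, adjusted p = 0.00783), a call lost without MHCII+CD11c- replicate 1 (adjusted p up to 0.0538). The groups did not overlap for these 3 genes. In the fits that left out a library or pair, the number that rose was 1 without MHCII+CD11c- replicate 1 and 3 without pair 3 and the number that fell was 3 without MHCII+CD11c- replicate 1 or 2, MHCIIlow replicate 1 or pair 2 and 4 without MHCII+CD11c- replicate 3 or pair 3. Among Fc receptors 2 rose and 2 fell of 7 tested, with a median log2 fold change of 0.10, and 1 rose and 2 fell without the pair term. The neonatal receptor Fcgrt was lower at 205, 232 and 230.2 CPM in MHCII+CD11c- libraries, against 575, 434 and 395 CPM in MHCIIlow libraries (log2 fold change -1.08, SE 0.12, adjusted p = 0.000271). The activating Fcgr4 was higher at 24.3, 34.6 and 41.6 CPM in MHCII+CD11c- libraries, against 7.21, 14.3 and 16.9 CPM in MHCIIlow libraries (log2 fold change 1.41, SE 0.18, adjusted p = 0.000725). Among semaphorins and plexins, which guide and bind cells, 3 rose and 3 fell of 17 tested, with a median log2 fold change of -0.03, and 3 rose and 2 fell without the pair term. Sema4a was lower at 57.1, 34.8 and 45.1 CPM in MHCII+CD11c- libraries, against 149, 91.7 and 90.7 CPM in MHCIIlow libraries (log2 fold change -1.28, SE 0.11, adjusted p = 1.27e-05). Sema4d was higher at 143, 153 and 156 CPM in MHCII+CD11c- libraries, against 43.7, 80.3 and 94.7 CPM in MHCIIlow libraries (log2 fold change 1.07, SE 0.19, adjusted p = 0.00624). Libraries of the groups did not overlap for these 4 genes. For semaphorins the number that fell was 1 without MHCII+CD11c- replicate 1 or 2, MHCIIlow replicate 1 or pair 1 or 2. Of integrins 3 rose and 1 fell of 15 tested, with a median log2 fold change of 0.43, and 2 rose and 1 fell without the pair term. The integrin rises were fewer with pair 2 left out, where 1 was called. Of inhibitory receptors, which damp activation, 4 rose and 1 fell of 12 tested, with a median log2 fold change of 0.28, and 1 rose and 0 fell without the pair term. In the fits that left out a library or pair, the number that rose was 0 without pair 3 and 1 without MHCII+CD11c- replicate 1 or 3 or pair 1 or 2 and 2 without MHCIIlow replicate 1. Of peritoneal macrophage genes 2 rose and 4 fell of 12 tested, with a median log2 fold change of -0.45, and 2 rose and 4 fell without the pair term. Alox15, a lipoxygenase, was at 0.315, 0.494 and 0.152 CPM in MHCII+CD11c- libraries, against 5.17, 9.68 and 8.12 CPM in MHCIIlow libraries (log2 fold change -4.55, SE 0.28, adjusted p = 1.39e-06), the largest fall of any gene tested. Gata6, which defines peritoneal macrophages, was at 1.54, 2.77 and 1.29 CPM in MHCII+CD11c- libraries, against 1.55, 2.18 and 1.39 CPM in MHCIIlow libraries (log2 fold change 0.09, SE 0.24, adjusted p = 0.858).

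Markers of other cells were summed in each library as CPM of the library total. Fibroblast genes summed to 1379.9, 3069 and 1655 CPM in MHCII+CD11c- libraries, against 1341, 2905 and 1619 CPM in MHCIIlow libraries, highest in pair 2 of both groups, and edgeR called 0 of 16, DESeq2 0, and 0 had an unadjusted p under 0.05. Mast and eosinophil genes summed to 8.67, 54.4 and 63.6 CPM in MHCII+CD11c- libraries, against 9.90, 60.7 and 71.3 CPM in MHCIIlow libraries, lowest in pair 1 of both, with 0 of 7 called by edgeR or DESeq2 and 0 at an unadjusted p under 0.05. Endothelial genes summed to 188, 321 and 243 CPM in MHCII+CD11c- libraries, against 89.3, 189.8 and 174 CPM in MHCIIlow libraries. Of 14 tested 2 rose and 0 fell, with a median log2 fold change of 0.53, while 0 rose and 0 fell without the pair term. The share called was 14.3%, near the 14.0% of all genes tested and below the 22.9% of genes at 10 CPM or more. Fabp4 and Flt1 were those that rose. The Flt1 adjusted p was 0.0425, and 0.252 without the pair term, and its call was lost without MHCII+CD11c- replicate 1, 2 or 3, MHCIIlow replicate 1 or 2 or pair 1 or 2 (adjusted p up to 0.215). The T and NK sum was 98.9, 114 and 131 CPM in MHCII+CD11c- libraries, against 33.2, 56.05 and 79.2 CPM in MHCIIlow libraries. Most of it was Il7r, an interleukin receptor chain, at 91.3, 105 and 121 CPM in MHCII+CD11c- libraries, against 24.6, 45.7 and 61.1 CPM in MHCIIlow libraries (log2 fold change 1.29, SE 0.26, adjusted p = 0.0139). That call was lost without MHCII+CD11c- replicate 2 or 3 or pair 2 (adjusted p up to 0.07). Il7r was the 1 T and NK gene that rose, and 0 fell, of 14 tested (7.14%), with a median log2 fold change of -0.05. Cd3e, a T cell receptor chain, was at 0.419, 0.626 and 0.684 CPM in MHCII+CD11c- libraries, against 0.409, 0.467 and 0.934 CPM in MHCIIlow libraries. Of B cell markers 3 rose and 0 fell of 11 tested (27.3%), with a median log2 fold change of 1.15, 3 rose and 0 fell without the pair term, and 5 rose without MHCIIlow replicate 3. Cd79b, of the B cell receptor, was at 3.46, 3.36 and 5.59 CPM in MHCII+CD11c- libraries, against 1.28, 1.21 and 2.09 CPM in MHCIIlow libraries (log2 fold change 1.42, SE 0.28, adjusted p = 0.00518). The summed B cell level was 139, 167 and 170.3 CPM in MHCII+CD11c- libraries, against 199.6, 162 and 172 CPM in MHCIIlow libraries, and its groups overlapped. Of the neutrophil list 3 of 8 genes passed the filter on low counts, 0 were called by edgeR or DESeq2, and Ly6g, which defines neutrophils, was at 0 in all 6 libraries. The part of other cells in the rises of endothelial markers, Il7r and B cell markers was not tested. Adipocyte, mesothelial and erythroid markers had 0 edgeR calls among 10, 10 and 3 genes tested, with 3, 1 and 1 at an unadjusted p under 0.05 and 1, 0 and 0 calls by DESeq2. Macrophage markers had 3 rises and 1 fall among 12 (33.3%).

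**Figure D4:**
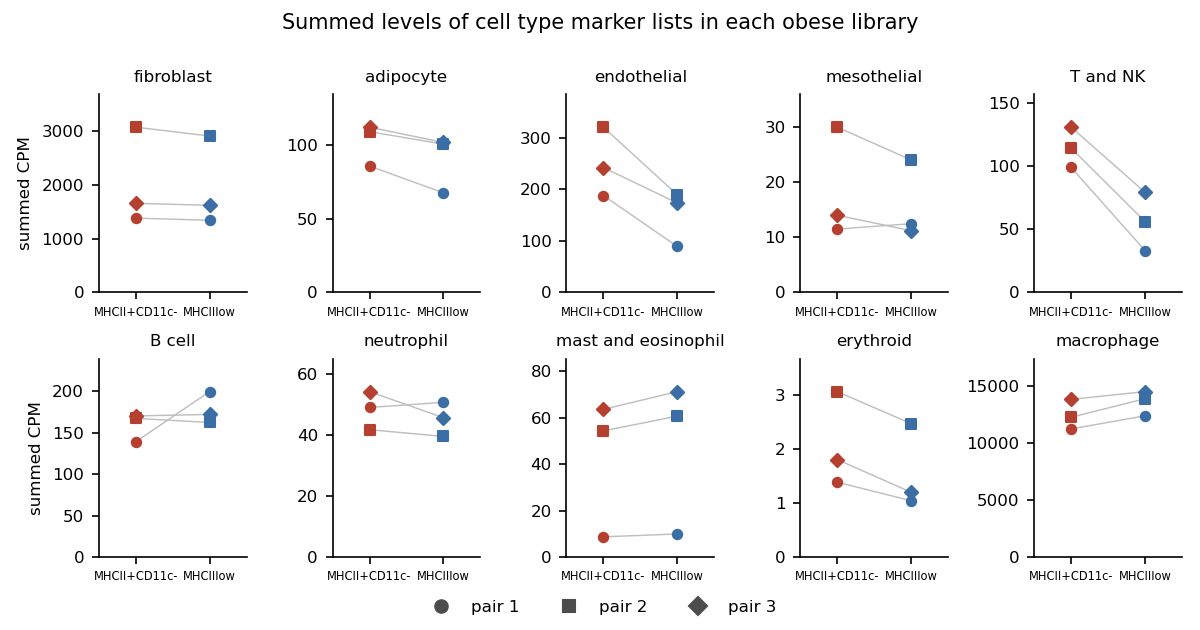
Summed CPM of 10 cell type marker lists in each obese library, MHCII+CD11c- (left, red) and MHCIIlow (right, blue), with lines joining libraries of equal number. Fibroblast and mast cell sums follow the pair number, while endothelial and T and NK sums are higher in MHCII+CD11c- libraries in each pair. Most of the T and NK sum is Il7r.

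The same pair of populations from lean mice was tested beside the obese one. In lean mice 361 genes rose (1.76%) and 220 fell (1.07%) of 20506 tested, 2.83% in all, without a pair term because the lean numbers differ between titles and descriptions. With the description numbers as a term 1136 were called. Among 19381 genes tested in both diets, 466 were called in both with the same direction, which is 16.6% of the obese calls and 81.0% of the lean calls, and 0 were called in opposite directions. The obese calls used the pair term and the lean calls did not, and without it the obese libraries gave 1362 calls. Obese log2 fold changes here and below are from the fit with the pair term. Lean ones and the differences are from the fit of both diets without it, so a difference need not equal obese minus lean. Class II genes were higher in MHCII+CD11c- macrophages in both diets, with 9 rises and 0 falls of 12 tested in lean mice. H2-Ab1 had a log2 fold change of 2.88 (SE 0.19) in obese and 3.13 (SE 0.19) in lean mice, a difference of -0.23 (SE 0.24, adjusted p = 1 with no pair term, and 0.997 with the obese pairs as a term). Ccr2 was at 304, 186 and 198 CPM in lean MHCII+CD11c- libraries, against 89.98, 59.8 and 52.7 CPM in lean MHCIIlow libraries, and its difference was -0.08 (SE 0.46, adjusted p = 1 with no pair term, and 1 with the obese pairs as a term). Of the perivascular list 0 rose and 7 fell in lean mice, with a median of -0.68.

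**Figure D5:**
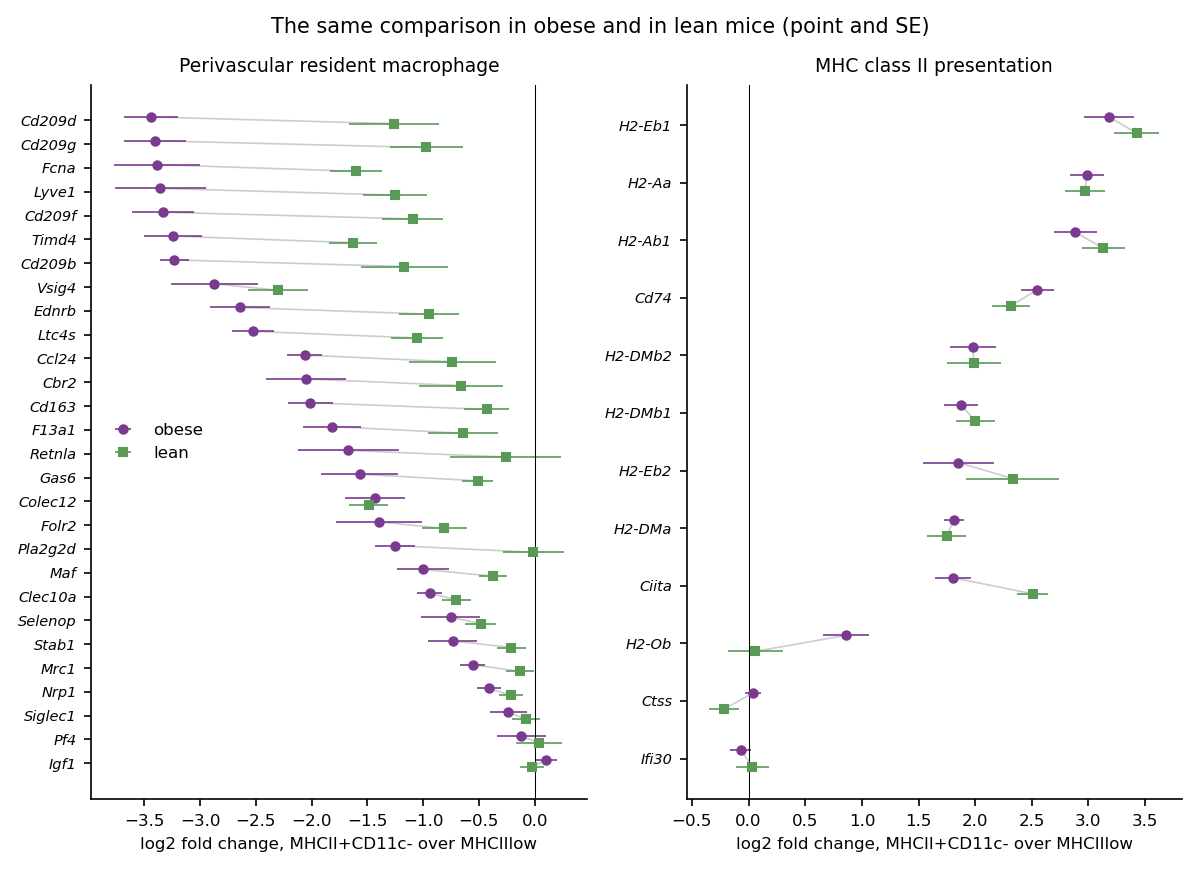
Log2 fold change of MHCII+CD11c- over MHCIIlow in obese (circles) and lean (squares) mice for the perivascular (left) and class II (right) lists, with SE. Obese points are from the fit with the pair term and lean points from the fit without it. In the perivascular list most obese points lie further below 0 than the lean ones, while in the class II list the points of both diets lie close to each other except for H2-Ob and Ciita.

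The difference between obese and lean log2 fold changes was tested directly. With no pair term edgeR called 0 of 20506 genes (smallest adjusted p = 0.257), 907 had an unadjusted p under 0.05, and DESeq2 called 62, of which 10 were higher and 52 lower. With the obese pairs as a term edgeR called 56 (0.273%), of which 6 were higher (0.0293%) and 50 lower (0.244%). With the description numbers of both diets as a term it called 104. The fit with the obese pairs as a term was chosen after the data were seen. In that fit 14 of the 28 perivascular genes were among the lower ones and 0 among the higher. The fit with no pair term called 0 of them. Cd163 was at 1189, 1262 and 1238 CPM in lean MHCII+CD11c- libraries, against 1614, 1697 and 1535 CPM in lean MHCIIlow libraries. Its log2 fold change was -2.01 (SE 0.20) in obese and -0.43 (SE 0.20) in lean mice, a difference of -1.60 (SE 0.29, adjusted p = 0.396 with no pair term, and 0.000179 with the obese pairs as a term). Lyve1 was at 408, 381 and 324 CPM in lean MHCII+CD11c- libraries, against 952, 795 and 844 CPM in lean MHCIIlow libraries, a difference of -2.12 (SE 0.41, adjusted p = 0.41 with no pair term, and 7.73e-05 with the obese pairs as a term). For Cd209f the difference was -2.26 (SE 0.39, adjusted p = 0.396 with no pair term, and 7.73e-05 with the obese pairs as a term), and for Ednrb -1.69 (SE 0.38, adjusted p = 0.424 with no pair term, and 0.000747 with the obese pairs as a term). Olr1 was at 16.98, 10.8 and 15.9 CPM in lean MHCII+CD11c- libraries, against 17.8, 17.6 and 14.1 CPM in lean MHCIIlow libraries, a difference of 1.41 (SE 0.30, adjusted p = 0.41 with no pair term, and 0.0123 with the obese pairs as a term). The lean groups overlapped for Olr1, and the obese groups did not.

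Levels in the other obese populations, which shared the fit, are set beside these. Lyve1 was at 6.44, 7.73 and 7.39 CPM in MHCII+CD11c+ libraries and 1.18, 2.95 and 4.46 CPM in P3 libraries. Cd163 was at 62.4, 72.9 and 66.2 CPM in MHCII+CD11c+ libraries and 84.6, 64.5 and 83.4 CPM in P3 libraries. H2-Ab1 was at 2205, 1224 and 1678 CPM in MHCII+CD11c+ libraries and 4265, 3001 and 4202 CPM in P3 libraries. P3 cells held the most H2-Ab1 of all obese populations. Ccr2 was at 139.8, 69.7 and 85.1 CPM in MHCII+CD11c+ libraries and 334, 426 and 399.9 CPM in P3 libraries. MHCII+CD11c- macrophages had Lyve1 and Cd163 levels below those of every MHCIIlow library and above those of every MHCII+CD11c+ and P3 library from obese mice.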

How the data were processed

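RNA-seq counts per gene were deposited by the authors as 1 table of raw counts for 54532 gene IDs in 21 libraries, of which 54495 matched GENCODE M21 (GRCm38) without the version. The submitters' processing notes name GRCm38 as the build and list, with no role or order, STAR 2.6.0a, featureCounts, Subread 1.4.6-p5, bcl2fastq and Trim Galore 0.4.5. No source used here states whether counting used the strand, or mentions molecular identifiers.

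Differences were tested with edgeR 4.0.16 in R 4.3.3 (TMM, filterByExpr, robust quasi-likelihood test, 2-sided, Benjamini-Hochberg over all genes tested). The 12 obese libraries were fitted with 4 group means and the title's number as a pair term. Deviations from group means over 8218 genes correlated at 0.586, 0.690 and 0.416 between libraries of equal number, and at -0.561 to 0.138 between unequal ones. Deviations from a mean of 3 libraries cancel within a group, which lowers the unequal values where the equal ones are positive. Libraries of equal number thus shared deviations, but what a number stands for was not tested. Lean libraries and the difference between diets were fitted over 12 libraries with no pair term. CPM used TMM factors of all 21 libraries. DESeq2 1.42.0, other filters, other library sets and leaving out each library were tried as alternatives. On simulated counts for the obese comparison (19653 genes), 82% of 2-fold and 99% of 4-fold changes were called, and 11 unchanged genes were called. Changes were planted only in genes above a floor of mean CPM, given below. The counts were drawn from the fitted model with its pair term.

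Genes were named by rule: the 15 largest rises and falls among called genes whose higher group averaged 10 CPM or more, equal in sign in 3 of 3 pairs and without overlap; the 4 called members of smallest p of each list, with further called members; a list of sort and subset markers; and 8 genes per direction of the difference between diets. Other list members that did not pass the test were named after their values were seen. The members and lists were chosen with earlier results of these data known. Of 238 genes named by the rule, 55 are overlapped by exons of another gene on the other strand.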

Additional observations from a re-analysis of the deposited data

How the results depend on the processing

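The obese comparison called 2807 genes with the pair term. Without the replicate block it called 1362 in the obese libraries and 699 in all 21 libraries, 1360 and 691 of them shared with the 2807. With at least a 2-fold change required it called 671. With 1 library or 1 pair left out it called 1299 to 2456. Of the 226 called genes named by the rule, 83 kept call and direction under every alternative and 101 under all but the leave-outs, and 0 changed direction. Adjusted p-values given above as without the pair term are from the obese libraries, unless all 21 are named. In all 21 libraries further named genes lost their edgeR calls, among them Ccl6 (adjusted p = 0.483), Itgam (0.304) and Clec4a2 (0.305). The lean comparison called 581 genes, against 942 with DESeq2, 1080 with no filter, 1017 with the title numbers as a replicate block, 1136 with the description numbers as a block, and 270 to 391 with 1 library left out. The lean title numbers gave correlations of 0.621, -0.347 and -0.211 between libraries of equal number. The description numbers gave 0.621 and 0.474 for the 2 numbers shared, and unequal description numbers gave -0.423 to 0.670. No lean pairing was used in the fits reported first. For the difference between diets 0 genes were called, against 62 with DESeq2, 139 with no filter, 63 with the title numbers as a replicate block, 104 with the description numbers, 56 with the obese numbers alone (chosen after seeing the data), and 0 to 14 with 1 library left out. The highest of these, 14, came without obese MHCIIlow replicate 1, and 7 came without obese MHCIIlow replicate 3. The cause of these shifts was not tested. In counts simulated at this depth 82% of 2-fold changes were called, so that a change of that size can be missed. Only genes averaging at least 1 CPM in the obese libraries were changed there, so this share does not cover genes of lower level.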
